A study of Mus musculus with 6 samples.

Results

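Of 61939 barcodes that passed a filter on genes and mitochondrial RNA, 396 were endothelial nuclei in which no Ehd3 transcript was read. The data are single-nucleus RNA sequencing of mouse kidney cortex, made with the 10x Chromium system, in which each captured RNA molecule carries a unique molecular identifier (UMI) and each nucleus a barcode. Control mice were Klf4 fl/fl (n = 3 libraries), with loxP sites around Klf4, and knockout mice were Podocin-Cre Klf4 fl/fl (n = 3 libraries), all on the FVB/N strain. Podocin-Cre expresses the recombinase from a promoter active in podocytes, so the deletion was aimed at podocytes and the endothelium was not its target. No age, sex, treatment or preparation day is given in the sources used here, nor whether libraries shared a litter, so p-values measure only the spread between these samples.

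The kidney has several endothelia. Glomerular capillaries are fenestrated and lack diaphragms across their pores, and in the mouse Ehd3, an endocytic protein, marks them among kidney endothelia. Peritubular capillaries wrap the tubules and carry pore diaphragms built from Plvap. Arteries and arterioles use Notch and ephrin-B2 signals, the vasa recta descend into the medulla, and veins and lymphatics have their own markers. Vascular endothelial growth factor from podocytes and tubules acts on endothelial Kdr and Flt1, and the Tek receptor binds angiopoietins. Klf2 and Klf4 are transcription factors that blood flow induces in endothelium.

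Members were chosen on measured values. They had at least 300 genes and at most 5% mitochondrial UMIs, and at least 3 UMIs over Flt1, Emcn, Pecam1 and Kdr with 2 or more of these 4 genes detected. They also had 0 UMIs of Ehd3, of the podocyte gene Nphs1, of the mural gene Pdgfrb and of the leukocyte gene Ptprc, and at most 1 UMI each of the proximal tubule transporter Slc34a1 and the thick ascending limb transporter Slc12a1. Controls 1, 2 and 3 gave 19, 49 and 118 members, and knockouts 1, 2 and 3 gave 99, 37 and 74. The members held 448163 UMIs in all. They were shallow nuclei, with median UMI counts of 1101, 705 and 865 in the controls against 1272, 705 and 710.5 in the knockouts, below the median of all filtered barcodes in each library (1116 to 2123).

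Control 1 and knockout 1 stood apart from the other libraries before any comparison. They held 19645 and 22069 filtered barcodes against 3845 to 6064 in the others, and 62016616 and 52478581 deposited UMIs against 8270961 to 12604832. Their median mitochondrial shares were 2.5% and 1.02%, against 0.0851% to 0.162%. Among deposited barcodes 486 sequences occurred in more than 1 library, and 9 members carried such a sequence, in controls 1, 2 and 3 (1, 2 and 6 nuclei).

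The limit on Slc34a1 set how many nuclei each library contributed. Before it, 758, 180 and 267 barcodes of the controls, and 711, 126 and 207 barcodes of the knockouts, had passed the endothelial, podocyte, mural and leukocyte terms. Their median Slc34a1 count was 21, 5.5 and 1 UMIs in the controls against 8, 5 and 4 in the knockouts, and it was highest in the libraries with the highest median depth at that step (4504.5 UMIs in control 1 and 2464 in knockout 1). The limit kept 3.96%, 31.7% and 50.9% of these barcodes in the controls against 16.9%, 32.5% and 43.0% in the knockouts. Control 1 therefore entered every comparison with 19 nuclei and 23910 UMIs, the fewest of the 6 libraries.

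**Figure D1:**
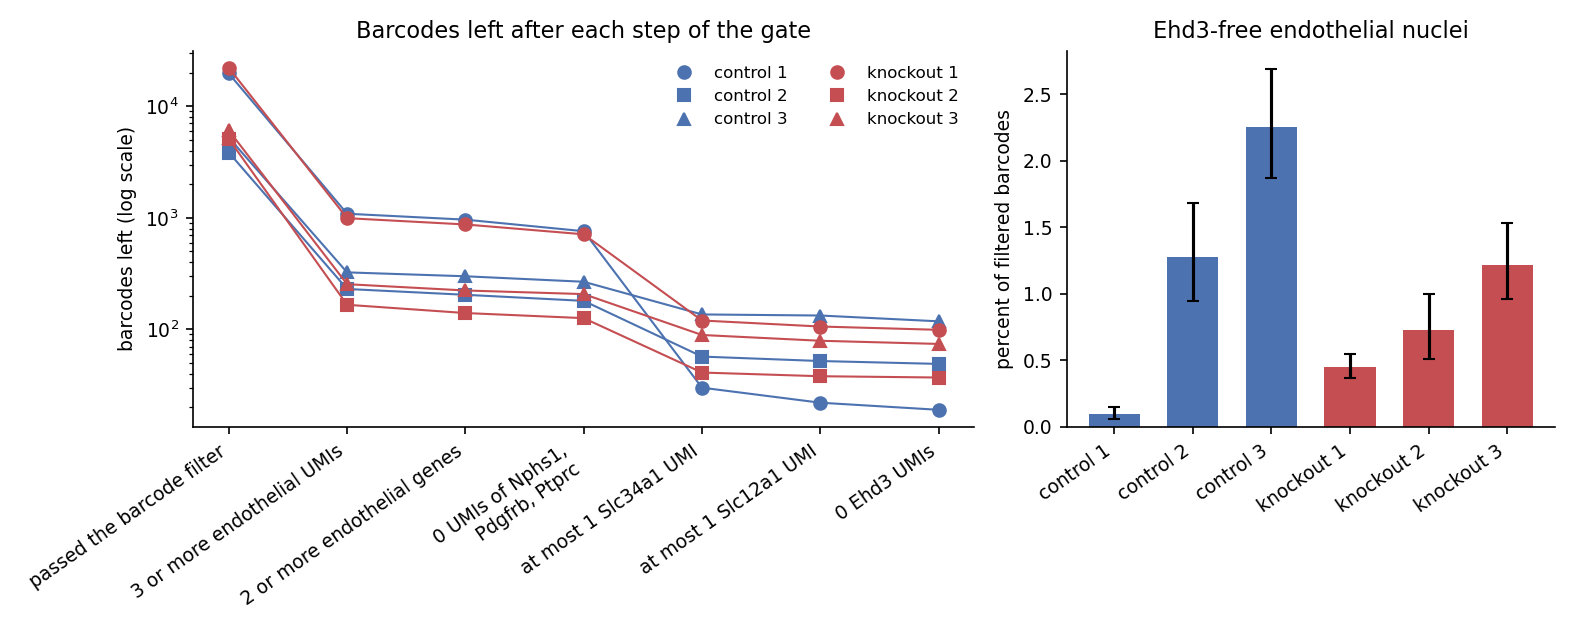
The left panel plots the barcodes left after each step of the gate in each library on a log scale, and the right panel plots members as a percent of filtered barcodes, with bars for 95% Clopper-Pearson intervals. Control 1 drops from 758 to 30 barcodes at the Slc34a1 step, and the members run from 0.0967% of its barcodes to 2.25% of those of control 3.

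By the gate genes themselves, given here only as a description, Flt1 was detected in 345 members (87.1%), Emcn in 340 (85.9%), Pecam1 in 216 (54.5%) and Kdr in 137 (34.6%). A member held a median of 5 UMIs of the 4 genes and at most 31. The endothelial label was then checked on 24 other endothelial genes that the gate had not used, among them Cdh5, Tek, Tie1, Ptprb, Erg, Fli1 and Egfl7. At least 2 of the 24 were detected in 84.2%, 79.6% and 97.5% of the members of controls 1, 2 and 3 and in 91.9%, 94.6% and 97.3% of those of knockouts 1, 2 and 3. In other barcodes the shares ran from 7.30% to 15.1%. With every nucleus thinned to 1000 UMIs and shallower nuclei left out, the shares were 75.0% to 95.7% in members and 3.92% to 7.64% in other barcodes, so members stood above the rest of their library in all 6.

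The label weakened near the threshold. Barcodes with only 2 endothelial UMIs, just outside the gate, numbered 125 and had 2 or more of the 24 genes in 68% of cases. Those with 3 UMIs, just inside, numbered 116 and reached 85.3%, those with 4 numbered 78 and reached 93.6%, and the 202 with 5 or more reached 97.0%. Only 8 members had none of the 24 genes, and control 1 held 1 of them.

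Several receptors and regulators of the endothelium stood well above the rest of the kidney. Levels are given as CPM, the UMIs of a gene scaled in the usual way to the summed UMIs of a library's members. CPM of nuclear RNA is not scaled to gene length, so levels are compared for the same gene and not between genes. Tek was at 544, 820 and 704 CPM in controls 1, 2 and 3 and at 589, 630 and 784 CPM in knockouts 1, 2 and 3, against 32.4 CPM in the pooled other barcodes, a ratio of 20.8. Ptprb, the phosphatase that restrains Tek and VE-cadherin signalling, was at 1046, 472 and 1095 CPM in the controls and at 615, 1471 and 1220 CPM in the knockouts, a ratio of 26.6 to the rest. For both genes the groups overlapped and every library lay above the other barcodes.

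The genes with the highest ratios to other barcodes among those with at least 100 UMIs in members were mostly known endothelial genes. Eln, the elastin of arterial walls, had a ratio of 33.4, Zfp366 29.7, Cyyr1 28.8 and Fgd5, a Cdc42 exchange factor of endothelium, 27.1. Heg1, a partner of the CCM junction proteins, stood at 27.0, Adgrl4 (an endothelial adhesion receptor) at 25.5, and Calcrl, the receptor subunit for adrenomedullin, at 24.9. Each of these was above the other barcodes in 6 of 6 libraries except Eln, which was above in 5 and had 0 UMIs in control 2. These ratios are a description, since the members were chosen as endothelial.

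The 4 genes Flt1, Emcn, Pecam1 and Kdr were not alike over libraries. Flt1 was at 1213, 2161 and 2090 CPM in the controls and 1170, 1831 and 2585 CPM in the knockouts. Emcn, an endothelial sialomucin, was at 1506, 2136 and 1815 CPM in the controls and 1204, 2672 and 1844 CPM in the knockouts. Pecam1, a junctional adhesion molecule, ran from 522 CPM in control 2 to 1840 CPM in control 1, with the knockouts at 655, 1021 and 871 CPM between them. Kdr ran from 251 CPM in knockout 1 to 566 CPM in knockout 3. For all 4 genes the groups overlapped, and knockout 1 had the lowest level of Flt1, Emcn and Kdr.

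**Figure D2:**
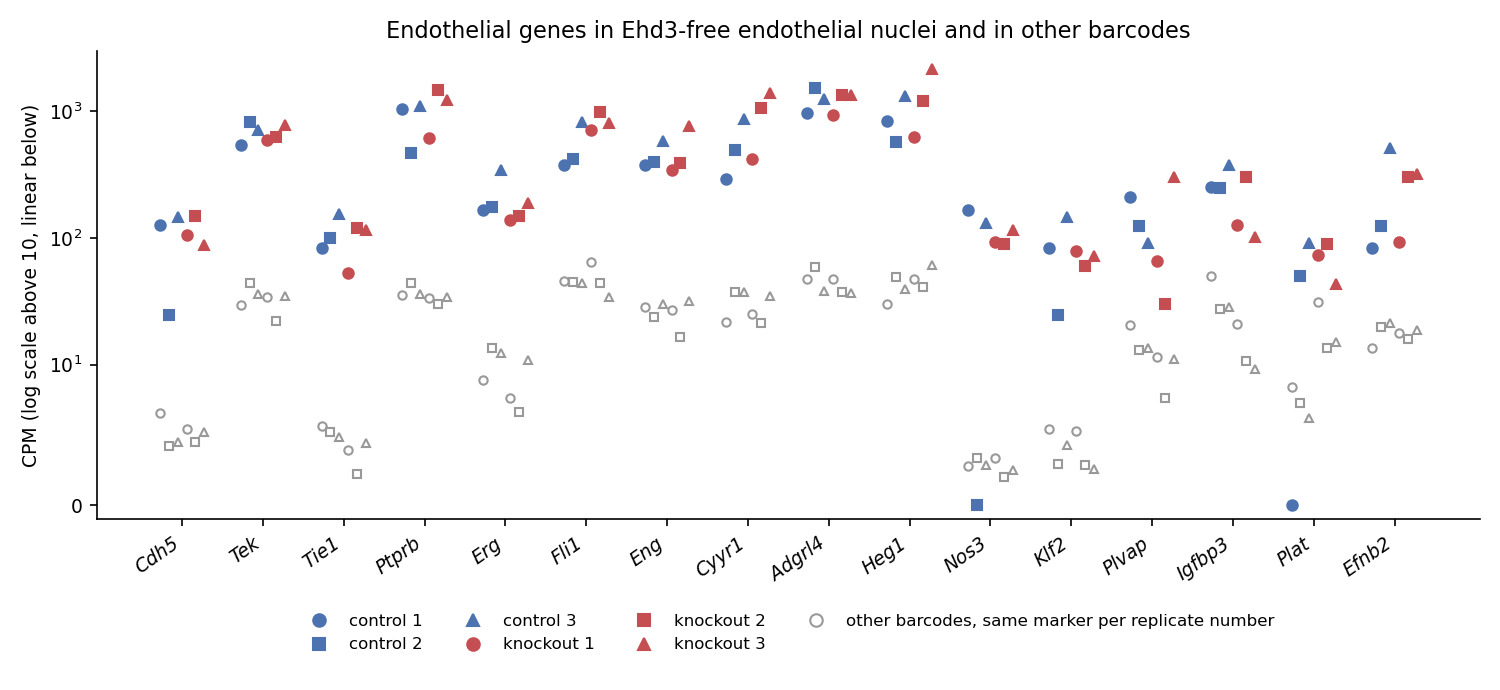
Levels of 16 endothelial genes in CPM (log scale above 10, linear below) in the members of each library (filled, blue for control, red for knockout) and in the other filtered barcodes of the same library (open grey). Tek, Ptprb, Adgrl4 and Cyyr1 lie above the grey points in all 6 libraries, while Nos3 and Plat each reach 0 in 1 library.

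Plvap, one of the genes given whatever its level, gave 54 UMIs over all members. It was at 209, 124 and 91.9 CPM in the controls and at 66.1, 30.0 and 305 CPM in the knockouts, so the groups overlapped and knockout 3 was the highest. Klf2 was at 83.6, 24.8 and 145 CPM in the controls and at 79.4, 60.05 and 72.6 CPM in the knockouts, all inside the control range. Klf4 itself gave only 14 UMIs in members, at 83.6, 0 and 38.3 CPM in the controls and at 19.8, 60.05 and 29.0 CPM in the knockouts. At these counts a difference in Klf4, Klf2 or Plvap was not detectable, and none of them passed the low-count filter.

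Ehd3 itself was read rarely, so a nucleus without an Ehd3 UMI is not thereby placed outside the glomerulus. Only 34 endothelial barcodes that met every other term of the gate had Ehd3, with 42 Ehd3 UMIs in all, and 26 of the 34 had a single Ehd3 UMI. Of other genes known from glomerular endothelium, Plat (tissue plasminogen activator) gave 31 UMIs in members, or 69.2 CPM, against 6 UMIs, or 159.6 CPM, in the Ehd3-positive nuclei. Tbx3 gave 7 UMIs (15.6 CPM) against 5 (133 CPM), and Pi16 gave 10 (22.3 CPM) against 4 (106 CPM). Sost gave 0 UMIs in members and Gata5 gave 1. Of the members, 11 had 2 or more of the 6 glomerular endothelial genes listed, Ehd3 aside.

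Some markers of endothelial segments and of other cell types were at 0, while summed lists ran near or above the level of other barcodes. Lyve1, Ccl21a and Pdpn of lymphatic endothelium, the venular receptor Ackr1, the urea transporter Slc14a1 of descending vasa recta and the activation marker Sele were all at 0 UMIs in members. Other genes of these lists were not, with 38 UMIs of Flt4 on the lymphatic list and 70 of Ephb4 on the venous list. The lymphatic list summed to 41.8 to 160 CPM over the libraries, against 24.7 to 54.0 CPM in other barcodes. The venous list summed to 497 to 1261 CPM against 120 to 180 CPM. Both sums lay above the other barcodes in every library. In control 1 the lymphatic sum was only 1 UMI, of Flt4, at 41.8 CPM against 33.4 CPM in its other barcodes. Rgs5 of pericytes gave 1 UMI. Summed immune markers ran from 83.6 to 298 CPM in the controls and from 160 to 271 CPM in the knockouts, against 105 to 159.9 CPM in the other barcodes. The podocyte and parietal list summed to 1380.2 to 2121 CPM in the controls and 1659.8 to 1922 CPM in the knockouts, near the other barcodes (1855 to 2388 CPM), and in control 3 above them (1923 CPM). The mural and fibroblast list summed to 1297 to 2427 CPM in the controls and 1118 to 3002 CPM in the knockouts, above the other barcodes (184 to 205 CPM), with Ebf1 and Piezo2, which some endothelia also express, as its 2 members with enough UMIs to test.

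Tubule transcripts varied widely between the libraries of each group. Summed markers of the proximal tubule, the most abundant cell of the cortex, were at 23087, 8966 and 4763 CPM in controls 1, 2 and 3 and at 8193, 3963 and 3935 CPM in knockouts 1, 2 and 3. Other barcodes ran from 14651 to 25414 CPM. Control 1 therefore stood near the level of its other barcodes, and the groups overlapped. Summed markers of the thick ascending limb and distal tubule were at 2468, 2335 and 2006 CPM in the controls and at 6183, 1231 and 3252 CPM in the knockouts, with knockout 1 the highest and knockout 2 the lowest.

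Members varied among themselves in segment genes. A nucleus was counted for a segment when it had 2 or more different genes of that segment's list. Of the 396 members, 113 (28.5%) were counted for the peritubular capillary and caveolae list, 88 (22.2%) for the arterial list and 52 (13.1%) for the venous list. The cell cycle list gave 39, the glomerular endothelial list 11, the vasa recta list 10 and the lymphatic list 2. In other barcodes, which were deeper, the peritubular list gave 19.8%, the arterial list 16.5%, the venous list 4.14%, the cell cycle list 11.03% and the vasa recta list 13.9%. With all barcodes thinned to 1000 UMIs the shares in 172 members and in other barcodes were 24.4% and 6.05% for the peritubular list, 25.0% and 5.78% for the arterial list, and 9.30% and 0.826% for the venous list. They were 6.98% and 4.07% for the cell cycle list and 4.07% and 3.61% for the vasa recta list, on 12 and 7 members. The cell cycle share of other barcodes pooled libraries from 1.05% in control 1 to 11.6% in knockout 2. The glomerular list gave 0.581% and 0.533%, on 1 member, too few to place it against other barcodes. Without thinning, a shorter glomerular list that leaves out Mapt gave 4 of 396 members (1.01%) against 0.0927% of other barcodes. After thinning it gave 0 of 172 members. The lists are of unequal length and hold genes of unequal level, so the shares do not rank the segments.

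Not every gene of the peritubular list was higher in members than in other barcodes. Over all libraries Cd36 was at 183 against 254 CPM and Car4 at 24.5 against 67.3 CPM. Others were higher in members, such as Igfbp3 (225 against 31.4 CPM) and Cavin2 (71.4 against 9.26 CPM). The part of Cd36 and Car4 in the counts was not tested. The peritubular share was the segment share in which control and knockout libraries did not overlap. It counted 10, 15 and 42 nuclei of controls 1, 2 and 3, or 52.6%, 30.6% and 35.6% of their members, and 21, 5 and 20 nuclei of knockouts 1, 2 and 3, or 21.2%, 13.5% and 27.0%. The means were 39.6% ± 11.5 (SD, n = 3) and 20.6% ± 6.78 (SD, n = 3), a difference of -19.0 percentage points for knockout minus control. The two-sided exact permutation p was 0.1, the smallest that 20 assignments allow, and the Benjamini-Hochberg adjusted value over the 7 lists was 0.70. Without control 1 the difference was -12.5 points (exact permutation p 0.2), and without both libraries numbered 1 it was -12.8 points. With members thinned to 1000 UMIs the shares were 33.3%, 42.9% and 41.3% against 11.9%, 0% and 21.7%, a difference of -27.9 points with the same exact permutation p of 0.1. The thinned other barcodes gave 9.02%, 3.09% and 3.66% in controls 1 to 3 and, in the same order, 4.93%, 3.26% and 3.95% in the knockouts, and knockout 2, with 10 members left after thinning, lay below its own other barcodes. With the 3 markers Plvap, Igfbp3 and Npr3 alone, a list tried after seeing the data, the difference was -1.96 points and the exact permutation p was 0.4, with overlap. After thinning these 3 markers gave 8.33%, 7.14% and 6.52% against 4.48%, 0% and 4.35%, without overlap, on 9 nuclei in all (-4.39 points, exact permutation p 0.1). In the thinned other barcodes the same 3 markers gave 0.258%, 0.193% and 0.175% in the controls. The knockouts there gave 0.105%, 0.0284% and 0.0732%, also without overlap, so a lower knockout share was not particular to the members.

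For the other lists the groups overlapped. Arterial nuclei were counted 6, 5 and 38 times in the controls and 14, 8 and 17 times in the knockouts, with an exact permutation p of 0.6 (adjusted 0.84). Venous nuclei were counted 1, 1 and 17 times in the controls and 21, 6 and 6 times in the knockouts, with an exact permutation p of 0.2 (adjusted 0.70). Nuclei with cell cycle genes were counted 2, 3 and 7 times in the controls and 17, 6 and 4 times in the knockouts, with an exact permutation p of 0.4 (adjusted 0.70).

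**Figure D3:**
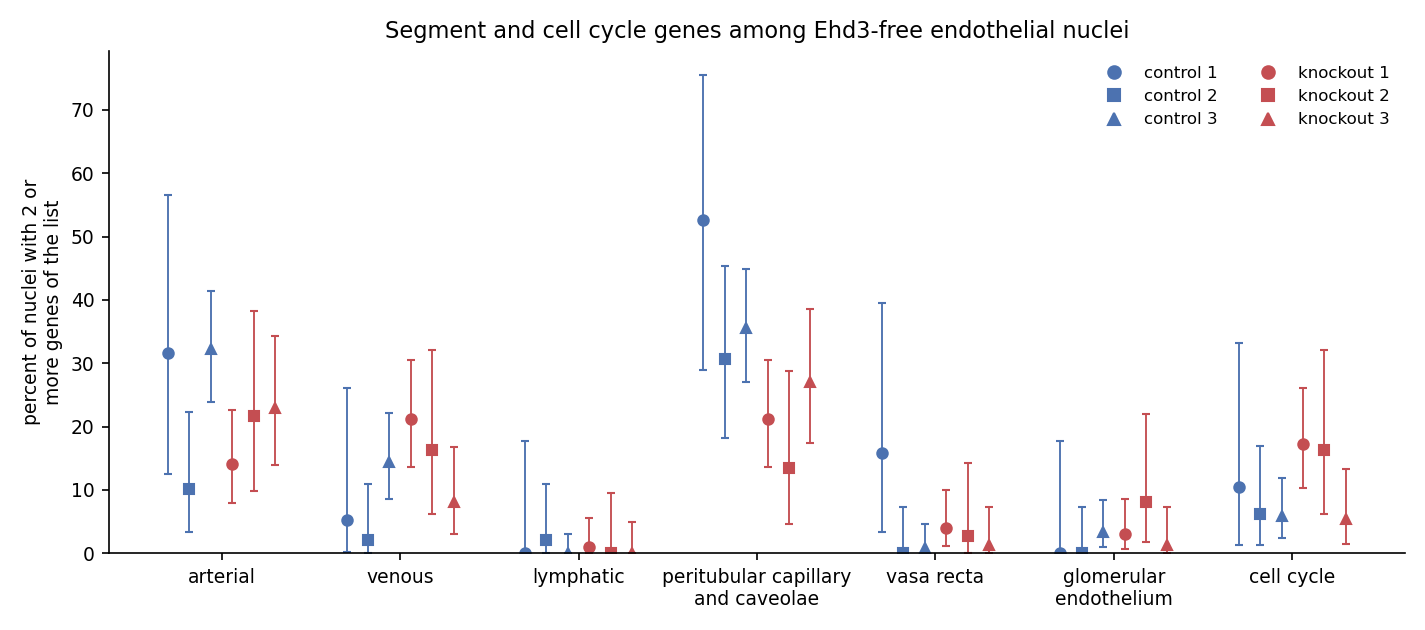
Percent of members in each library with 2 or more genes of each list, with 95% Clopper-Pearson intervals (counting error only), blue for control and red for knockout. In the peritubular list the controls sit at 30.6% to 52.6% and the knockouts at 13.5% to 27.0%, and in the other lists the groups overlap.

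A shorter list of arterial markers, Sox17, Gja4, Gja5, Efnb2, Fbln5, Ltbp4, Vegfc and Bmx, used after seeing the data, counted 27 nuclei with 2 or more markers in place of the 88 above. They numbered 1, 1 and 15 in controls 1, 2 and 3, against 4, 2 and 4 in the knockouts. These 27 nuclei, called arterial from here on, held 75 of the 86 Vegfc UMIs of all members and 59 of 71 of Jag1, but 49 of 120 of Efnb2. The nuclei are defined in part by Vegfc and Efnb2, so only Jag1 among these genes was not used to pick them. Those of control 3 held 26.4% of its member UMIs, against 2.49% to 9.16% in the other libraries. The 3 deepest nuclei of control 3 had 8879, 7825 and 3304 UMIs, or 15.3% of that library's member UMIs. They alone supplied 39 of its 57 UMIs of the Notch ligand Jag1, 34 of 65 of the growth factor Vegfc and 170 of 271 of the transcription factor Mecom. They also held 30 of its 52 Eln UMIs and 7 of 9 of the arterial connexin Gja5, and none of Plvap or Igfbp3.

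Some arterial genes stood high in control 3 alone among the controls, and others did not. Jag1 was at 41.8, 0 and 436 CPM in the controls and at 26.5, 180.1 and 43.6 CPM in the knockouts. Vegfc was at 83.6, 0 and 498 CPM in the controls and at 79.4, 60.05 and 72.6 CPM in the knockouts. Efnb2, the arterial ephrin ligand, was at 83.6, 124 and 513 CPM in the controls and at 92.6, 300.2 and 319 CPM in the knockouts. For each of these 3 genes control 3 was the highest library, and for Jag1 and Efnb2 controls 1 and 2 lay below at least 2 of the knockouts. Fbln5, an elastic fibre protein, was at 125, 74.5 and 222 CPM in the controls and at 59.5, 30.0 and 58.1 CPM in the knockouts, without overlap, on 49 UMIs. Eln and Bmx, an arterial kinase, were highest among the controls in control 1, at 711 and 125 CPM, on 17 and 3 UMIs there, and all 17 Eln UMIs came from 1 nucleus.

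A second group of nuclei carried distal tubule transcripts, most of them in knockout 1. Nuclei with 5 or more UMIs over Slc12a3, Slc26a4, Slc4a1, Aqp2, Umod and Egf numbered 2, 1 and 2 in the controls against 21, 1 and 3 in the knockouts. The 21 of knockout 1 were 21.2% of its members and had a median of 1871 UMIs, and their median number of the 24 endothelial genes was 4, against 5 in its remaining members. Only 1 of the 30 such nuclei was also counted as arterial. No doublet caller was run, and the part of mixed droplets in these nuclei was not tested.

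**Figure D4:**
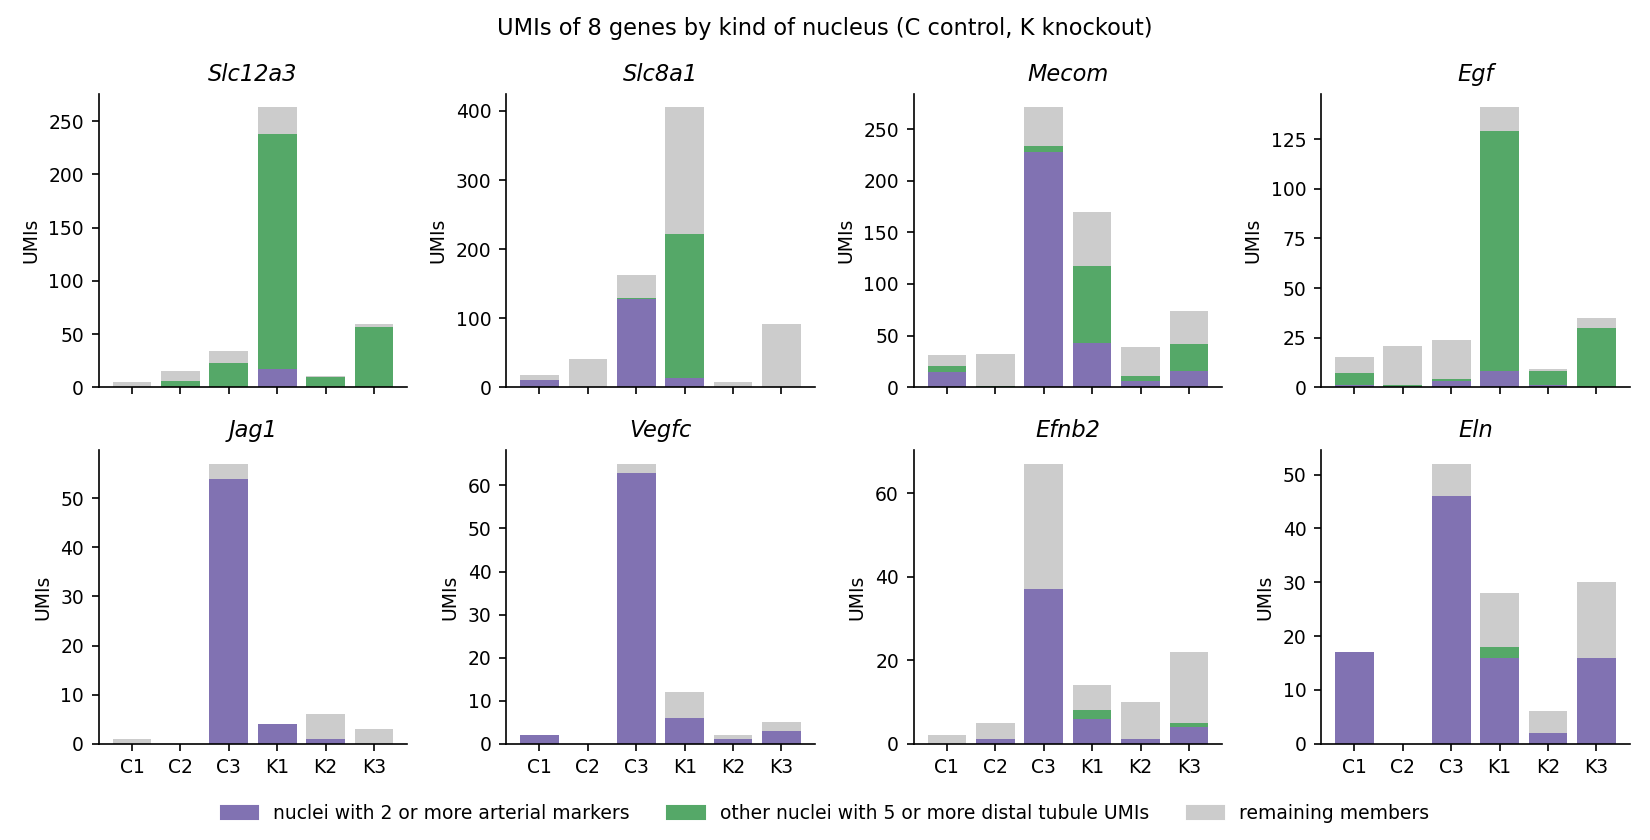
UMIs of 8 genes in each library (C1 to C3 controls, K1 to K3 knockouts), divided into nuclei with 2 or more arterial markers, other nuclei with 5 or more distal tubule UMIs, and the remaining members. Of the 263 Slc12a3 UMIs of knockout 1, 238 lie in nuclei with distal tubule UMIs, and of the 57 Jag1 UMIs of control 3, 54 lie in arterial nuclei.

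Whether loss of Klf4 in podocytes went with a different number of these nuclei was asked first. Members made up 0.0967%, 1.27% and 2.25% of filtered barcodes in controls 1, 2 and 3, against 0.449%, 0.728% and 1.22% in the knockouts. The means were 1.21% ± 1.08 (SD, n = 3) and 0.799% ± 0.391 (SD, n = 3), a difference of -0.410 percentage points with an exact permutation p of 0.6. The controls spanned the whole range of the knockouts. Without control 3 the difference turned to 0.113 points, and without both libraries numbered 1 it was -0.790 points.

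When the limits on Slc34a1 and Slc12a1 were dropped, a choice made after seeing the data, 2031 Ehd3-free barcodes met the remaining terms. They made up 3.44%, 4.34% and 4.47% of filtered barcodes in the controls against 2.92%, 2.28% and 3.20% in the knockouts. The control libraries all lay above the knockout libraries, with means of 4.08% ± 0.564 (SD, n = 3) and 2.80% ± 0.470 (SD, n = 3). The difference was -1.28 points, with an exact permutation p of 0.1, the smallest this design allows. Many of these barcodes carried proximal tubule transcripts, as the median Slc34a1 counts above show, and the part of mixed droplets in the difference was not tested.

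Among endothelial nuclei of either kind, the Ehd3-free share was 86.4%, 94.2% and 88.7% in controls 1 to 3 and, in the same order, 93.4%, 97.4% and 93.7% in the knockouts. The means were 89.8% ± 4.04 (SD, n = 3) and 94.8% ± 2.22 (SD, n = 3), a difference of 5.04 points with an exact permutation p of 0.3, and control 2 lay inside the knockout range. The Ehd3-positive counts behind these shares were 3, 3 and 15 in the controls against 7, 1 and 5 in the knockouts. Their median depths were 1314, 689 and 891 UMIs in the controls and 986, 519 and 663 UMIs in the knockouts. Outside the endothelial gate, Ehd3 was at 7.91, 7.04 and 7.63 CPM in the controls and at 6.63, 6.01 and 4.00 CPM in the knockouts.

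Gene levels were compared between knockout and control members over all genes that passed the low-count filter. Of 16341 genes with a UMI in members, 1172 passed. None reached an adjusted p under 0.05 in edgeR's quasi-likelihood test with Benjamini-Hochberg adjustment, so the percent called was 0, with 600 genes above and 572 below no change. An unadjusted p under 0.05 was reached by 42 genes (3.58%), and DESeq2 also called 0, with 22 at an unadjusted p under 0.05. In 93 genes (7.94%) the 3 control and 3 knockout levels did not overlap. Over the 20 assignments of libraries to groups, non-overlap corresponds to an exact permutation p of 0.1. A share of 7.94% is therefore not an excess, and non-overlap of a single gene is only a description. The smallest adjusted p was 0.540. The median 95% half-width of a log2 change, not adjusted for the number of genes, was 0.815, or 1.76-fold. Smaller differences in a typical gene were not detectable at this depth, and the adjusted threshold asked for larger ones. Even the largest log2 difference in size, 3.01, did not pass.

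The 8 genes with the smallest p in each direction are given with their values, since none passed. Those with higher knockout levels were led by Chka, the choline kinase that starts phosphatidylcholine synthesis. It was at 41.8, 0 and 30.6 CPM in the controls and at 225, 210.2 and 203 CPM in the knockouts, a log2 difference of 3.01 ± 0.66 (SE) with an adjusted p of 0.540. Slc6a15, a transporter of branched-chain amino acids, was at 41.8, 149 and 38.3 CPM in the controls and at 364, 210.2 and 247 CPM in the knockouts, a log2 difference of 2.13 ± 0.55 (SE). For both genes every knockout library lay above every control library. In the other barcodes Chka was at 167, 187 and 162 CPM in the controls and at 333, 308 and 392 CPM in the knockouts, and Slc6a15 at 129, 103 and 103 CPM against 320.3, 347 and 414 CPM. The higher knockout level of these genes was thus also present outside the members, and Chka was lower in members than in the other barcodes of all 6 libraries. The other barcodes are a sum over many cell types, in which fewer cells of a type and less RNA per cell cannot be told apart.

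Tsc22d2 and Setd5 were higher in every knockout library than in every control library. Tsc22d2 was at 125, 124 and 130.2 CPM in the controls and at 291, 330.3 and 247 CPM in the knockouts, a log2 difference of 1.15 ± 0.34 (SE) with an adjusted p of 0.795. In other barcodes Tsc22d2 was at 127, 174 and 137 CPM in the controls and at 176, 188 and 205 CPM in the knockouts, also without overlap but by a small gap. Setd5, a chromatin regulator with a SET domain, was at 293, 373 and 429 CPM in the controls and at 529, 901 and 770 CPM in the knockouts, a log2 difference of 0.87 ± 0.29 (SE). Setd5 in other barcodes was at 223, 266 and 243 CPM in the controls and at 351, 506 and 539.6 CPM in the knockouts. For Setd5 the members lay above the other barcodes in all 6 libraries. Whether either difference was larger in members than outside was not tested.

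The other genes of this direction were Mob3b (1.67 ± 0.43, SE, on the log2 scale), Fhod3 (1.49 ± 0.39), the nuclear receptor coactivator Ncoa1 (0.98 ± 0.34) and Slc12a3. Slc12a3, the thiazide-sensitive cotransporter of the distal convoluted tubule, was at 209, 373 and 260.4 CPM in the controls and at 1739, 330.3 and 857 CPM in the knockouts, a log2 difference of 1.86 ± 0.55 (SE) with an adjusted p of 0.795. Knockout 2 lay inside the control range. Of its 333 UMIs in knockouts, 305 came from the 25 nuclei with 5 or more distal tubule UMIs, and these nuclei are defined in part by this gene. Without knockout 1 the log2 difference of Slc12a3 was 1.01.

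Among genes with lower knockout levels, Mtmr3, a phosphoinositide phosphatase of the autophagy pathway, was at 418, 348 and 291 CPM in the controls and at 132, 90.1 and 145 CPM in the knockouts. Its log2 difference was -1.37 ± 0.35 (SE) with an adjusted p of 0.540, and the groups did not overlap. In other barcodes Mtmr3 was at 201, 268 and 227 CPM in the controls and at 203, 268 and 249.6 CPM in the knockouts, with the groups overlapping there. AY036118 was at 962, 571 and 719.8 CPM in the controls and at 357, 390.3 and 334 CPM in the knockouts, a log2 difference of -1.10 ± 0.33 (SE). Other barcodes held AY036118 at 381, 518 and 735 CPM in the controls and at 372, 351 and 334 CPM in the knockouts, also without overlap.

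Pde3a, a phosphodiesterase that breaks down cyclic AMP in vascular cells, was at 335, 298 and 781 CPM in the controls and at 258, 120.1 and 87.1 CPM in the knockouts. Its log2 difference was -1.56 ± 0.50 (SE) with an adjusted p of 0.997, and no library overlapped. Control 3 was the highest library. Without control 3 the difference was -0.89, and without knockout 1 it was -2.48. Other barcodes held Pde3a at 29.5 to 51.6 CPM in every library, below all members. Nxn, a thioredoxin-family regulator, was at 627, 447 and 712 CPM in the controls and at 192, 510.4 and 319 CPM in the knockouts, a log2 difference of -1.01 ± 0.37 (SE), and knockout 2 lay inside the control range. Glud1 (-1.25 ± 0.38, SE) and Cyp4b1 (-1.68 ± 0.56, SE) were the others. Both were lower in members than in the other barcodes of all 6 libraries, and Cyp4b1 was highest in control 1 at 1171 CPM. Its log2 difference was -1.09 without control 1 and -2.502 without knockout 1. Both genes also had lower knockout levels outside the members, without overlap. In other barcodes Cyp4b1 was at 1828, 1610.2 and 1931 CPM in the controls and at 936, 894 and 542 CPM in the knockouts, and Glud1 at 469.7, 699.9 and 599 CPM against 398, 406 and 329 CPM.

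The peritubular genes Igfbp5 and Igfbp3 completed the 8. Both are secreted binders of insulin-like growth factors. Igfbp5 was at 209, 273 and 359.9 CPM in the controls and at 145, 150.1 and 203 CPM in the knockouts, without overlap, a log2 difference of -0.88 ± 0.32 (SE) with an unadjusted p of 0.018 and an adjusted p of 0.997. Igfbp3 was at 251, 248 and 375 CPM in the controls and at 126, 300.2 and 102 CPM in the knockouts, a log2 difference of -1.05 ± 0.40 (SE) with an unadjusted p of 0.022, and knockout 2 lay inside the control range. Of the 14 genes of the peritubular capillary and caveolae list 12 were in the files and 4 were tested, all 4 with a log2 difference below 0 and a median of -0.53, beside a median of 0.01 over all 1172 genes tested. The other tested members were the fatty acid receptor Cd36 (-0.18 ± 0.40, SE) and Rgcc (-0.10 ± 0.38, SE). The summed list was at 1757, 1416 and 1723 CPM in the controls and at 813, 1081 and 1467 CPM in the knockouts, where knockout 3 lay above control 2.

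**Figure D5:**
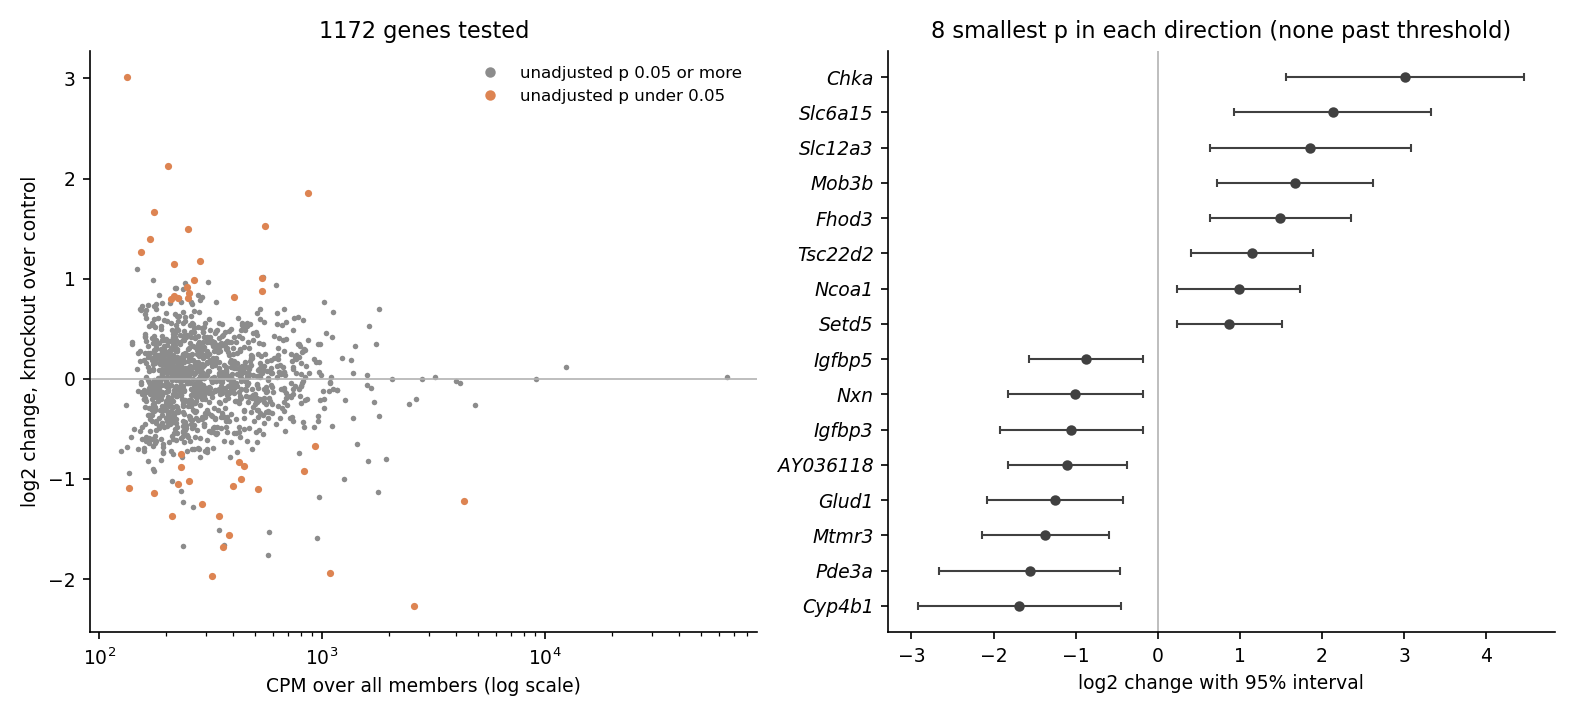
Left, the log2 difference of knockout over control against the level in members for 1172 genes, with the 42 at an unadjusted p under 0.05 in orange. Right, the 8 genes with the smallest p in each direction with their 95% intervals, from 3.01 for Chka to -1.68 for Cyp4b1, none of which passed the threshold.

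The remaining gene groups are given by role, each with its tested members, and no member of any list passed the threshold. Of the 24 endothelial identity genes 9 were tested, 4 above and 5 below no change with a median log2 difference of -0.00, and the 2 with the smallest p were Fli1 (0.49 ± 0.33, SE) and Cyyr1 (0.61 ± 0.44, SE). The glomerular list had 1 tested member, the microtubule gene Mapt (0.84 ± 0.48, SE), which the other barcodes held at a higher level than members. The arterial list had 2 tested members, Efnb2 (-0.58 ± 0.58, SE) and Mecom (-0.39 ± 0.38, SE), and the venous list had 1, the semaphorin and growth factor co-receptor Nrp2 (0.43 ± 0.44, SE). No member of the vasa recta, lymphatic, cell cycle, immune, collecting duct or injured tubule lists had enough UMIs to be tested.

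Of the receptors and regulators of vascular growth 4 of 19 were tested, 2 in each direction, with a median of 0.05. Tek, whose levels are given above, had a log2 difference of -0.11 ± 0.28 (SE), with a 95% interval of -0.72 to 0.50. The co-receptor Nrp1 was at 795, 1143 and 1386 CPM in the controls and at 483, 841 and 1583 CPM in the knockouts (-0.30 ± 0.41, SE), and the groups overlapped. In the Notch list 2 of 16 were tested, the coactivators Maml3 (-0.33 ± 0.27, SE) and Maml2 (-0.11 ± 0.32, SE). In the BMP and TGF-beta list 6 of 22 were tested, 4 above and 2 below, with a median of 0.07, among them the receptor Bmpr2 (0.47 ± 0.37, SE) and the latent TGF-beta binder Ltbp1 (0.34 ± 0.45, SE).

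Of the KLF factors and flow-response genes 8 of 24 were tested, 4 in each direction, with a median of 0.17. Mef2a, a transcription factor upstream of Klf2 and Klf4 in endothelium, was at 335, 348 and 521 CPM in the controls and at 469.5, 961 and 624 CPM in the knockouts, a log2 difference of 0.60 ± 0.33 (SE). Asap1, a regulator of Arf GTPases, was at 460.1, 397 and 827 CPM in the controls and at 648, 991 and 1205 CPM in the knockouts, a log2 difference of 0.62 ± 0.36 (SE). Both genes overlapped between groups, with controls 1 and 2 the lowest libraries. Klf7 (-0.32) and Klf12 (-0.17) lay on the other side of 0, and Klf2, Klf4 and Klf6 were too low to test. Klf6, an early-response KLF factor, gave 14 UMIs, at 0, 24.8 and 23.0 CPM in the controls and at 26.5, 60.05 and 58.1 CPM in the knockouts, without overlap. In other barcodes it was at 21.7, 16.4 and 24.9 CPM in the controls and at 56.5, 59.3 and 50.2 CPM in the knockouts, also without overlap.

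The basement membrane list had 3 tested members of 13, all with a log2 difference above 0 and a median of 0.76. Col4a2, a chain of the ubiquitous type IV collagen, was at 167, 273 and 184 CPM in the controls and at 192, 570.5 and 421 CPM in the knockouts (0.76 ± 0.42, SE). Its partner chain Col4a1 was at 167, 74.5 and 199 CPM in the controls and at 145, 630.5 and 319 CPM in the knockouts (0.91 ± 0.52, SE). For both genes knockouts 2 and 3 lay above all controls and knockout 1 lay among them. Lama4, the laminin chain of endothelial basement membranes, had a log2 difference of 0.17 ± 0.44 (SE).

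In the junction list 4 of 15 were tested, 3 above and 1 below. The scaffold Afdn was at 209, 348 and 329 CPM in the controls and at 429.8, 390.3 and 494 CPM in the knockouts, without overlap (0.50 ± 0.30, SE), and the polarity gene Pard3 had a log2 difference of 0.25 ± 0.32 (SE). Of the leukocyte adhesion and activation list only Nfkb1, a subunit of NF-kappaB, was tested, at 167, 149 and 176 CPM in the controls and at 231, 330.3 and 218 CPM in the knockouts (0.56 ± 0.33, SE). All knockouts lay above all controls for Nfkb1, and the summed list likewise was at 502, 298 and 674 CPM in the controls and at 774, 901 and 741 CPM in the knockouts. In other barcodes that sum was at 190.3, 159.8 and 255 CPM in the controls and at 504, 423 and 313 CPM in the knockouts, also without overlap. Among the 30 lists this was the only member sum without overlap. Its exact permutation p was 0.1, the smallest this design allows, not adjusted for the number of lists. Of all genes tested, 7.94% were without overlap. The adhesion molecules themselves were rare, with Vcam1 at 0 to 45.9 CPM in the controls and 30.0 to 145 CPM in the knockouts.

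The interferon and antigen presentation list had 2 tested members of 23, the class I genes H2-D1 (-0.31 ± 0.41, SE) and H2-K1 (-0.23 ± 0.46, SE). In the coagulation list F8, clotting factor VIII, and Entpd1, which degrades extracellular ATP, had log2 differences of 0.32 ± 0.41 (SE) and 0.30 ± 0.48 (SE). The hypoxia factor Epas1 was at -0.34 ± 0.60 (SE), and the mesenchymal transition factors Zeb2 and Zeb1 at 0.44 ± 0.49 (SE) and 0.04 ± 0.33 (SE). Fkbp5, a chaperone induced by glucocorticoids, was at 167, 149 and 207 CPM in the controls and at 231, 570.5 and 319 CPM in the knockouts, without overlap, a log2 difference of 0.86 ± 0.38 (SE) with an adjusted p of 0.997. The clock gene Nr1d2 of the same list was at -0.31 ± 0.49 (SE).

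Among markers of other cells 9 of 15 proximal tubule genes were tested, 2 above and 7 below no change, with a median of -0.27. Kap, an androgen-induced gene of the proximal tubule, was at 16855, 2111 and 1080 CPM in the controls and at 3015, 751 and 741 CPM in the knockouts (-2.27 ± 1.02, SE), and control 1 was far above all others. Slc7a13, an amino acid transporter of the same segment, was at 669, 348 and 253 CPM in the controls and at 212, 150.1 and 189 CPM in the knockouts (-1.02 ± 0.45, SE). All 3 tested genes of the thick ascending limb and distal list were above 0, with a median of 0.57, among them Slc12a3 and Egf (0.57 ± 0.56, SE). Podocyte and parietal genes were at a median of -0.31 over 4 tested members, such as Thsd7a (-0.70 ± 0.55, SE) and Clic5 (-0.52 ± 0.45, SE). Piezo2 (0.59 ± 0.46, SE) and Ebf1 (-0.06 ± 0.41, SE) stood for mural genes, and the long nuclear RNA Neat1 was at 0.70 ± 0.39 (SE). The part of these transcripts in the gene differences above was not tested.

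Ehd3-free nuclei were also compared with the 34 Ehd3-positive endothelial nuclei of the same libraries, with the library as a block. Of 184 genes tested, 1 was called (0.543%), and 10 had an unadjusted p under 0.05. Slc8a1, the sodium-calcium exchanger, was higher in Ehd3-free nuclei by 2.28 ± 0.49 (SE) on the log2 scale, with an adjusted p of 0.000536 in edgeR's quasi-likelihood test. It gave 18, 41 and 162 UMIs in the Ehd3-free nuclei of the controls and 405, 8 and 92 in those of the knockouts, 726 in all, against 0, 3 and 7 and 3, 0 and 0 in the Ehd3-positive nuclei, 13 in all. Pooled levels were 1620 and 346 CPM.

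Slc8a1 was found in 118 members, and single libraries decided the call. It was found in 6, 21 and 35 members of the controls and in 24, 7 and 25 of the knockouts. In knockout 1 the nuclei with distal tubule UMIs held 210 of 405, and in control 3 the arterial nuclei held 128 of 162, while in control 2 both kinds of nuclei together held 1 of 41 and in knockout 3 they held 0 of 92. Over all libraries 362 of the 726 UMIs lay outside both kinds. Without control 2 no gene was called, and the same held without knockout 1, where the log2 difference was 1.73 with an adjusted p of 0.274. Without both libraries numbered 1 it was 1.53 with an adjusted p of 0.999, and with at least 2 endothelial UMIs in place of 3 it was 0.90 with an adjusted p of 0.891.

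Other genes did not pass in that comparison. Gramd1b (1.56 ± 0.48, SE, adjusted p 0.101), Arl15 (1.18 ± 0.39, SE, adjusted p 0.171), Mecom (0.86 ± 0.40, SE) and Adgrl4 (0.82 ± 0.40, SE) had higher values in Ehd3-free nuclei. Sbf2 (-0.90 ± 0.37, SE) and the GTPase-activating protein Dlc1 (-0.77 ± 0.36, SE) had lower values, both with adjusted p of at least 0.572. Plvap, the diaphragm gene of peritubular capillaries, was at 120.5 CPM in Ehd3-free and 106 CPM in Ehd3-positive nuclei, on 54 and 4 UMIs, and Npr3 at 107 and 106 CPM on 48 and 4 UMIs. Igfbp3 was at 225 and 213 CPM, with 8 UMIs in the Ehd3-positive nuclei, and Igfbp5 at 232 and 399 CPM on 104 and 15 UMIs, so that Igfbp5 had its higher level in the Ehd3-positive nuclei.

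Whether the knockout difference itself depended on Ehd3 was tested by an interaction term over the same 184 genes. No gene was called (0%) by edgeR's quasi-likelihood test, 6 had an unadjusted p under 0.05, and all adjusted p-values of the named genes were 0.999. Among the genes named by their p, the differences of the effect, Ehd3-free minus Ehd3-positive, reached 2.505 ± 1.21 (SE) on the log2 scale for Slc8a1 and -2.25 ± 1.10 (SE) for Lpp, an adaptor of focal adhesions. With 21 Ehd3-positive nuclei in the controls and 13 in the knockouts, the median depth of the Ehd3-positive nuclei given above left differences of this size undetectable.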

How the data were processed

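Nuclear RNA of single nuclei from kidney cortex was measured in 3 control and 3 knockout libraries. The deposited matrices hold raw UMI counts of 31053 genes per barcode, made by the authors, whose software was Cell Ranger 3.1.0 per the file headers. The submitters' processing notes name genome build mm10 and Seurat without its role. Aligner settings, annotation release and any removal of doublets are not given in the sources used here. Since doublets were not called, an alternative left out the 5% of members with most UMIs in each library. The members, the gene lists and the tests were chosen with earlier results of these data known. The names of nuclei come from marker genes and not from the authors, which can itself make values differ from the study's.

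Counts of members were summed per library. Levels are CPM, scaled to that sum, and the library is the replicate. Knockout and control were compared with edgeR 4.0.16 (R 4.3.3), quasi-likelihood test, TMM scaling, filterByExpr by group, no covariate, two-sided, with Benjamini-Hochberg adjustment over all genes tested and a threshold of 0.05. The 10 gate genes stayed in library sizes and out of the tests. The comparison with Ehd3-positive nuclei and its interaction term had the library as a block. Fits were tested on simulated data. For shares an exact permutation test, two-sided, ran over the 20 assignments of libraries to groups (smallest possible p 0.1) (Python 3.11.15, scipy 1.17.1). Intervals of shares are Clopper-Pearson at 95% and cover counting error only. "Other barcodes" are all filtered barcodes that are neither members nor Ehd3-positive endothelial nuclei. The segment shares after thinning are an exception, since their other barcodes still hold the Ehd3-positive nuclei.

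Named whatever their values were Plvap, Klf2, Klf4, Klf6 and the gate genes. From each list the members past the threshold, or else the 2 with the smallest p, are named. Where fewer than 5 genes passed in a direction, the 8 with the smallest p are named, without clone, mitochondrial and ribosomal names. Alternatives changed scaling, tool (DESeq2 1.42.0), low-count filter, replicate block, libraries, gate limits, barcode filters, shared barcodes and depth (thinning to 1000 UMIs).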

Additional observations from a re-analysis of the deposited data

How the results depend on the processing

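No gene was called between knockout and control with RLE scaling (41 at an unadjusted p under 0.05), DESeq2 (22), no low-count filter (409), any 1 library left out, or the other planned gates. The replicate number as a block called 19 genes, 4 higher (among them Chka, Slc6a15 and Slc12a3) and 15 lower (among them Cyp4b1, Kap, Pck1 and Pde3a), with 92 at an unadjusted p under 0.05. The labels do not say whether the numbers pair the samples. Same-numbered deviations correlated at 0.432, 0.0413 and 0.307, and differently numbered ones at -0.504 to 0.301. Control 1 correlated best with knockout 1 and control 3 with knockout 3, but control 2 with knockout 3 (0.0659). These values do not settle whether the numbers pair the samples. Without the Slc34a1 and Slc12a1 limits, a choice made after seeing the data, 3 genes were called (Slc6a15, A430033K04Rik and Glt1d1), and the values of Fhod3 and Slc12a3 turned to -0.13 and -0.17. In that setting many other log2 differences between knockout and control shrank, to 0.96 for Chka, 0.07 for Mob3b, 0.10 for Ncoa1, 0.51 for Tsc22d2, -0.04 for Mtmr3, -0.88 for Pde3a, -1.09 for Cyp4b1 and -0.39 for Nxn. Those of Setd5 (0.86) and Igfbp3 (-1.06) hardly moved, and that of Igfbp5 grew in size to -1.03. The single call between Ehd3-free and Ehd3-positive nuclei became 96 without a low-count filter, all higher, and 5 without the tubule limits. It became 0 without both libraries numbered 1, with 2 or 5 endothelial UMIs, with 0 tubule UMIs, without the deepest 5%, after thinning and with at most 1 distal tubule UMI, and ran from 0 to 1 with 1 library left out. The interaction gave 1 call without the tubule limits. The difference in the share of members ran from -0.965 to 0.113 with 1 library left out, the lymphatic share from -0.684 to 0.337 and the vasa recta share from -5.62 to 2.27. Without both libraries numbered 1 the vasa recta difference was 1.6 and the arterial one 1.09, with the shorter marker list the vasa recta difference was 0.955, and after thinning the glomerular one was -0.725. The cause was not tested in any of these. Of the other results, 133 values of comparisons and 276 of named genes kept their direction, or number of calls, and side of the threshold, whatever their size. The settings share most nuclei, the named genes were picked by their p in these data, and nearly all were not past the threshold. These counts therefore do not measure how stable the results are. The limit of 1% mitochondrial UMIs left control 1 with 0 members, so its share there is 0 and its gene sums were not used. Low counts left 1172 of 16341 genes testable, and this number rose to 1944 without control 1 and to 1926 without control 2 or without knockout 2.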

Other observations

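Of the 12 peritubular capillary and caveolae genes in the files, 5 (Plvap, Igfbp3, Igfbp5, Npr3 and Cavin2) had every control library above every knockout library outside the members, Cav1 had every control below, and in 6 the groups overlapped. In all other filtered barcodes, Igfbp3 was at 49.6, 27.3 and 28.4 CPM in controls 1, 2 and 3 and at 20.7, 10.7 and 9.68 CPM in knockouts 1, 2 and 3. Igfbp5 was at 107, 62.2 and 65.4 CPM against 51.8, 33.4 and 51.2 CPM, and the natriuretic peptide clearance receptor Npr3 at 8.70, 11.7 and 11.7 CPM against 6.63, 7.30 and 5.92 CPM. Cav1, the caveolae coat protein, was at 9.02, 9.26 and 11.1 CPM in the controls and at 14.6, 12.9 and 13.6 CPM in the knockouts. The summed list overlapped, at 603, 297 and 447 CPM in the controls and 438, 456 and 431 CPM in the knockouts. Plat of the glomerular list was at 8.43, 7.28 and 6.22 CPM in the controls and at 31.1, 13.6 and 15.2 CPM in the knockouts. These genes were chosen after their values were seen, and no test was run on them. The share of all genes without overlap outside the members was not computed. Whether these counts are unusual for the other barcodes therefore cannot be told.

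Nuclei with 2 or more of 22 cell cycle genes made up 7.27%, 7.28% and 8.17% of other barcodes in the controls, against 12.2%, 18.7% and 17.6% in the knockouts, without overlap. In members the same share was 10.53%, 6.12% and 5.93% in the controls, against 17.2%, 16.2% and 5.41% in the knockouts, where knockout 3 was the lowest library. Of the 7 segment and cell cycle lists, the arterial list also did not overlap in other barcodes, with lower knockout shares. It gave 21.1%, 21.0% and 17.5% in the controls against 14.0%, 9.04% and 13.5% in the knockouts. The remaining lists overlapped there. No test was run on these shares of other barcodes.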
